A study of Schizothorax plagiostomus with 18 samples.

Results

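A set of 307 features varied by at most 2.5-fold in their share of the library across testes and ovaries of the snow trout Schizothorax plagiostomus at every stage sampled. Features are single transcripts or clusters of transcripts, as the deposited map groups them, and none carries a gene name, so each is called here by its cluster identifier. The set was chosen by its measured values: a feature had to reach a CPM value (its count scaled to a common library total) of at least 10 in each of 18 libraries, and its highest value could be at most 2.5 times its lowest. Of 135031 features, 4621 reached 10 CPM in all libraries and 307 of those, or 6.64%, also met the ratio. The label of the set held in that sense alone, because all 18 values entered the choice, and levels within the set are therefore given as a description without a test.

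The 6 groups were pre-spawning, spawning and post-spawning testes, followed by pre-spawning, spawning and post-spawning ovaries, with 3 libraries each. The labels give sex, gonad, maturational stage and a season, numbered 1 to 3, which they call a batch, and name no treatment, age or pooling of fish. Ribosomal RNA was depleted with a kit sold for human, mouse and rat. Replicates 1, 2 and 3 of each group came from seasons 1, 2 and 3. Spread within a group therefore cannot be told apart from differences between seasons. The labels do not say how many fish gave a library, and spreads may also be partly technical. Library totals ran from 14604277 counts in post-spawning ovary 1 to 52676056 in post-spawning testis 3. Markers of testis and ovary could not be checked, since the files used here pair no feature with a gene.

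A gonad is a changing mixture of germ cells and supporting somatic cells. In the testis, spermatogonia give way to spermatocytes, spermatids and sperm as spawning nears, while growing oocytes come to dominate the ovary and store RNA for the embryo. Transcripts whose level hardly moves through such a cycle serve as internal references in quantitative PCR and in scaling of sequencing data. A level in CPM is a share of all counted RNA, so it can stay flat while the amount per cell changes. In bulk tissue, fewer cells of a type and less RNA per cell cannot be told apart.

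The members were of modest abundance. Their mean over all libraries had a median of 43.3 CPM, with quartiles at 27.7 and 76.4 CPM, against a median of 51.0 CPM in the 4314 other features that reached 10 CPM in every library. Means of at least 100 CPM were found in 57 members and means under 20 CPM in 26. The lowest single count behind any member value was 156, for cluster5355 in post-spawning ovary 1, or 10.7 CPM with an exact Poisson 95% interval from 9.07 to 12.5 CPM, which covers counting error only. The median member had 629 counts in its poorest library, so counting error was small beside the ratio of 2.5 that the choice allowed.

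Most members lay near the upper edge of the permitted spread. Ratios of highest to lowest CPM had a median of 2.21 and quartiles at 2.04 and 2.38. A ratio of at most 1.6 was reached by 3 members, at most 1.8 by 18, and at most 2 by 68. Among all features at 10 CPM in every library the median ratio was 4.74, the 10th percentile was 2.68, and the widest reached 998. The members are thus the lower tail of a continuous distribution, with no gap at the limit.

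**Figure D1:**
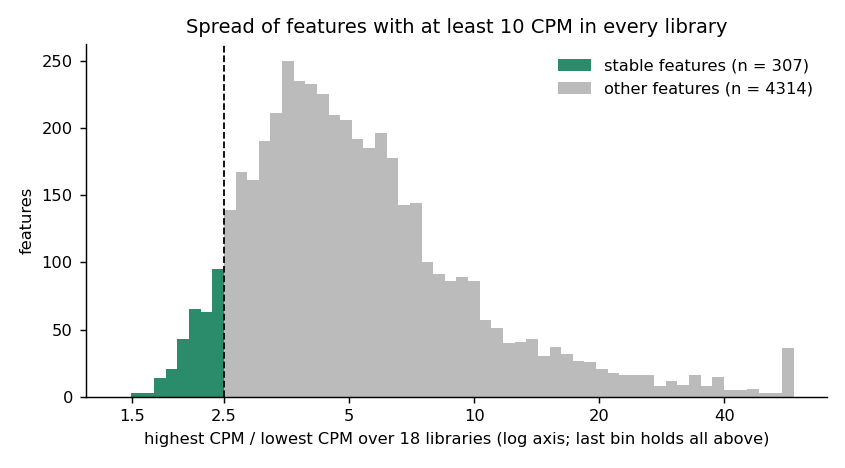
Histogram of the ratio of highest to lowest CPM over 18 libraries (log axis) for features with at least 10 CPM in every library, with the 307 stable features in green, the 4314 others in grey and the limit of 2.5 dashed. The stable features fill the left tail and the counts continue across the limit without a break.

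The feature with the smallest spread in CPM was cluster18260, a cluster of 3 transcripts. It stood at 74.3, 90.8 and 97.4 CPM in pre-spawning testes, 98.6, 82.2 and 97.8 in spawning testes, and 78.8, 97.8 and 94.1 in post-spawning testes. In ovaries it stood at 112, 89.4 and 88.6 CPM before spawning, 95.6, 86.5 and 83.1 at spawning, and 82, 88.8 and 86.4 after spawning. Its means were 90.2 ± 9.36 CPM in testes and 90.2 ± 8.91 CPM in ovaries (mean ± SD, n = 9 per gonad), and the highest value was 1.5 times the lowest. All 6 groups overlapped, and the extremes were the first pre-spawning testis and the first pre-spawning ovary.

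The single transcript cluster46145 was the next steadiest in CPM, with a ratio of 1.53. It ranged from 23.1 to 31.5 CPM in testes and from 23.1 to 35.2 CPM in ovaries, with means of 26.9 ± 3.45 CPM in testes and 27.6 ± 3.56 CPM in ovaries (mean ± SD, n = 9 per gonad). The cluster of 8 transcripts cluster4131 had a ratio of 1.57, with 91.1 ± 12.9 CPM in testes and 93.1 ± 13.8 CPM in ovaries. In CPM means over all stages, these features showed no offset between gonads beyond the spread of their libraries. The fits described below, on another scaling, called cluster46145 lower in testis than in ovary before spawning. The single transcripts cluster43696 and cluster70181 closed the leading 5, with ratios of 1.61 and 1.62. The first averaged 39.3 ± 5.1 CPM in testes and 33.9 ± 3.18 in ovaries, and the second 72 ± 12.2 CPM in testes and 79.7 ± 12.1 in ovaries (mean ± SD, n = 9 per gonad), with overlapping libraries in both cases.

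The most abundant member, cluster18619, was made of 2 transcripts. Its levels were 1325, 1256 and 1225 CPM in pre-spawning testes, from 1070.5 to 2145 CPM in spawning testes and from 1655 to 2105 CPM in post-spawning testes. In ovaries they were from 1204.5 to 1843 CPM before spawning, from 1325 to 1590.4 at spawning and from 1388 to 2263 after spawning. The mean was 1619.8 ± 413 CPM in testes and 1609 ± 337 in ovaries (mean ± SD, n = 9 per gonad). Pre-spawning testes lay close together, while spawning testes spanned almost the full range of this feature within a single group.

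The other abundant members differed in how the gonads compared. The cluster of 11 transcripts cluster2352 averaged 1054 ± 204 CPM in testes and 726 ± 126 in ovaries (mean ± SD, n = 9 per gonad), with the lowest testis at 663 CPM below the highest ovary at 885. The cluster cluster8908 likewise averaged more in testes, at 681 ± 144 CPM against 502 ± 75.4 in ovaries. Means hardly differed for cluster2626, at 781 ± 160 CPM in testes and 769 ± 186 in ovaries, or for cluster4468, at 508 ± 87.3 CPM in testes and 544 ± 113 in ovaries. Libraries of the gonads overlapped in each of these 4 features.

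**Figure D2:**
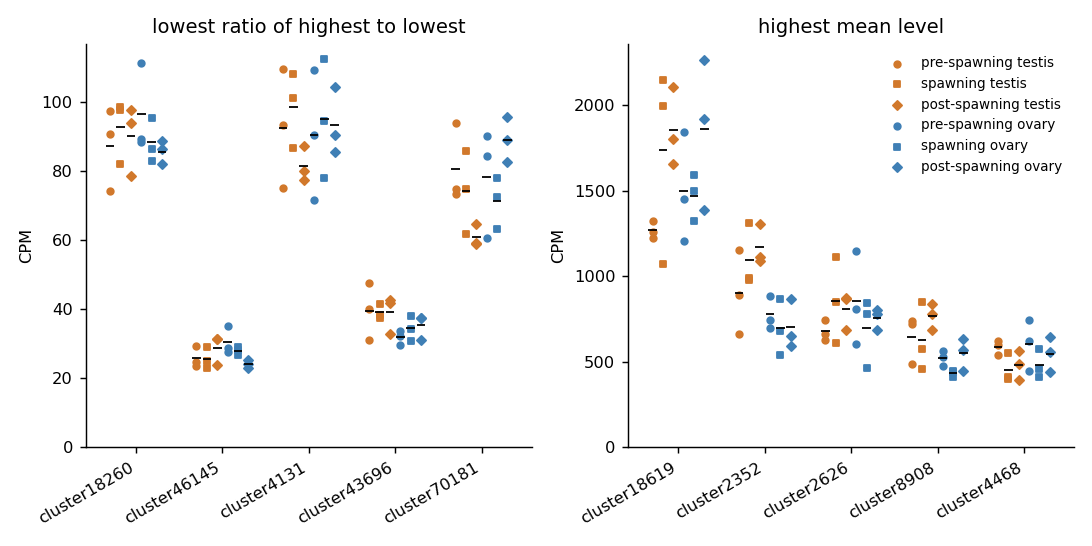
CPM of the 5 features with the lowest ratio of highest to lowest value (left) and the 5 of highest mean level (right), with a point per library, a bar at each group mean, testes in orange left of ovaries in blue, and stages in order within a gonad. Groups overlap for cluster18260 near 90 CPM, whereas cluster2352 averages 1054 CPM in testes and 726 in ovaries.

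At the limit, members and non-members were nearly alike. Just inside were cluster38188 (ratio 2.5, mean 18.6 CPM), cluster12180 (2.5, 32.1 CPM) and cluster67428 (2.49, 43 CPM). Just outside were cluster43045, cluster60555 and cluster22985, with ratios of 2.5 each to 3 digits and means of 17.1, 21.1 and 19 CPM. The first outside, cluster43045, reached its highest level, 27.7 CPM, in post-spawning ovary 2, and the last inside, cluster38188, its highest level, 30.5 CPM, in pre-spawning testis 1.

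Together the members took a small and even part of each library. Their summed share was 2.3% to 2.67% of counts in pre-spawning testes, 2.36% to 2.75% in spawning testes and 2.29% to 2.58% in post-spawning testes. In ovaries it was 2.38% to 2.53% before spawning, 2.22% to 2.44% at spawning and 2.36% to 2.49% after spawning. The highest share was 1.24 times the lowest. By comparison the 4314 other features at 10 CPM in every library took from 38% in pre-spawning ovary 2 to 70.3% in post-spawning testis 3, a ratio of 1.85, and features below that floor somewhere took the remainder.

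Small shifts common to the members remained inside this narrow range. The median member stood 0.16 and 0.14 log2 units above its own mean in pre-spawning testes 1 and 2, and 0.21 below it in post-spawning testis 1 (-0.21). Post-spawning testis 1 gave the lowest value of 43 members and the highest of 1. The lowest value fell in spawning testis 2 for 37 members and in post-spawning ovary 2 for 32, and the highest in spawning testis 1 for 36. The very abundant clusters cluster0 and cluster18 held 14.6% of counts in post-spawning testis 1 and 7.53% in spawning testis 2. The median member stood at -0.21 and -0.10 there. They held 12.7% and 10.4% in post-spawning testes 2 and 3, with medians of -0.04 and -0.09 and 7 members lowest in each. In pre-spawning testis 1 they held 2.74%, with a median of 0.16 and 3 members lowest. In post-spawning ovary 2 they held 2.46%, with a median of -0.10 and 32 members lowest. Whether these shares bear on the shifts was not tested. With those 2 features left out of the library totals, a choice made after the data were seen, 345 features met the rule, and 287 of the 307 members were among them.

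The gonad contrast held a small part of the members' spread, a part that the choice over both gonads itself limits. For the median member, the contrast of testes with ovaries held 9.27% of the variance of log2 CPM, the 6 groups 45.98% and the 3 seasons 5.84%, where the other features at 10 CPM in every library had 40%, 64.9% and 3.57%. Libraries of a group differed by a median SD of 0.28 log2 units in members and 0.45 in the others. The ratio limit itself caps the spread of members and any offset between gonads, so nothing is read from their lower gonad share. The shares are not corrected for the number of groups, so those of gonads, groups and seasons cannot be ranked against each other. The first principal component of the members' log2 levels, centred by feature, still held 20.9% of their variance. On it 8 of 9 testes were above 0 and 8 of 9 ovaries below, the exceptions being pre-spawning testis 1 (-0.29) and post-spawning ovary 2 (0.33). Post-spawning testes ran from 3.51 to 4.73, and the lowest ovary, post-spawning ovary 3, was at -3.69.

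Levels in libraries that the choice had not used were examined by season. When the rule was applied to the 12 libraries of seasons 2 and 3, 683 features met it, and in the 6 libraries of season 1 the ratio of highest to lowest stayed within 2.5 for 441 of them (64.6%). Of 783 features chosen without season 2, 428 (54.7%) stayed within that ratio in season 2, and of 478 chosen without season 3, 365 (76.4%) did so in season 3. Features at 10 CPM in the same 12 libraries that had not met the rule stayed within that ratio for 27.4% of 4184, 15.1% of 4721 and 28.3% of 4366 in seasons 1, 2 and 3. The median ratio in the season held out was 2.22, 2.41 and 1.98 for the chosen features, against 3.26, 4.34 and 3.33 for the others. A limit of 2.5 is easier to meet over 6 libraries than over 18, and this ratio ignores the floor and any shift from the 12 other libraries. The floor of 10 CPM was kept in the season held out by 646 of 683, 705 of 783 and 458 of 478 chosen features. Every one of the 307 members was in each chosen list, as the rule over 18 libraries implies the rule over 12. They made up 44.9%, 39.2% and 64.2% of the chosen features, shares that only restate the sizes of the lists. No test is attached to these shares, since features of a library are not independent of each other.

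**Figure D3:**
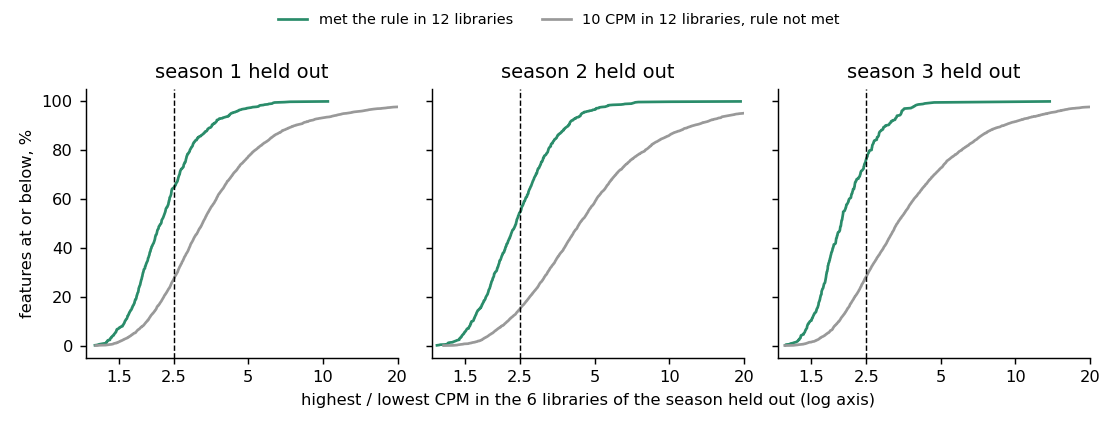
Cumulative percentage of features by the ratio of highest to lowest CPM (log axis) in the 6 libraries of a season, for features that met the rule in the 12 libraries of the other seasons (green) and features at 10 CPM in those libraries that did not (grey). At the dashed limit of 2.5 the green curves reach 64.6%, 54.7% and 76.4% and the grey curves 27.4%, 15.1% and 28.3% for seasons 1, 2 and 3.

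A feature within the limit over 18 libraries is within it over any 9 of them, so the counts within a gonad can only be larger. Among features at 10 CPM in every library, 2018 stayed within a ratio of 2.5 over the 9 testes and 2055 over the 9 ovaries. The lists shared 1037 features, which is 51.4% of the testis list and 50.5% of the ovary list. The 307 members are 29.6% of those 1037. The remaining 730 were level within each gonad and offset or spread too far between them, with 356 higher on average in testes and 374 in ovaries and a median absolute log2 ratio of means of 0.9, against 0.18 in members, a difference that the selection itself sets. Within a stage, with both gonads included, 1726 features met the ratio before spawning, 1491 at spawning and 1651 after spawning.

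**Figure D4:**
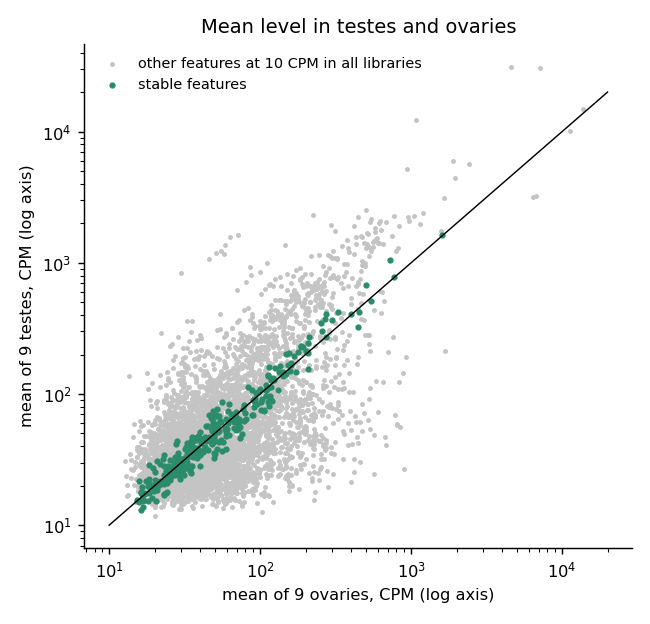
Mean CPM of 9 testes against mean CPM of 9 ovaries (log axes) for the stable features (green) and the other features at 10 CPM in every library (grey), with a line of equal levels. Stable features follow the line, with ratios of testis to ovary mean from 0.626 to 1.57.

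The mean of the testes was above that of the ovaries for 161 members and below it for 146, and 230 of 307 had means within 1.25-fold of each other. The ratio of testis to ovary mean ran from 0.626 to 1.57 with a median of 1.01. Even within the limit, libraries of the gonads could separate fully. Every testis was above every ovary in CPM for 3 members, where 8.42% of features at 10 CPM in all libraries did so, and every testis was below every ovary for 1 member, against 10.5%. The rule limits how often this can happen, so nothing is read from the comparison, and with library totals corrected by factors from trimmed means of M values (TMM) 2 of the members separated.

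The 3 members with testes above ovaries were cluster15430, cluster19867 and cluster17807. The cluster of 3 transcripts cluster15430 had 81.4, 105 and 93.4 CPM in pre-spawning, 92, 95.2 and 83.4 in spawning, and 78.4, 78.9 and 76.9 in post-spawning testes. In ovaries it had 56.1, 46 and 55.1 CPM before spawning, 70.7, 60.3 and 43.6 at spawning and 64.3, 44.9 and 62.2 after spawning. Its means were 87.1 ± 9.54 CPM in testes and 55.9 ± 9.49 in ovaries (mean ± SD, n = 9 per gonad). The means of cluster17807 were 57.3 ± 5.66 CPM in testes and 45.3 ± 4.57 in ovaries, and those of cluster19867 were 74.3 ± 11.7 CPM in testes and 49 ± 5.53 in ovaries. These last 2 were named after their values were seen.

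The member with every testis below every ovary was cluster28836, made of 2 transcripts. Testes had 47.8, 28.3 and 34.4 CPM before spawning, 42.9, 39.8 and 37 at spawning and 38, 33.6 and 38.3 after spawning, while the lowest of 9 ovaries was at 52.2 CPM, the median at 57.4 and the highest at 68.7. The gonad means were 37.8 ± 5.57 CPM in testes and 59.3 ± 5.5 in ovaries (mean ± SD, n = 9 per gonad). The largest ratios of testis to ovary mean belonged to cluster22768 (1.57), cluster25032 (1.56) and cluster15430 (1.56), and the smallest to cluster66953 (0.626), cluster28836 (0.638) and cluster55988 (0.649). For cluster55988 the ovaries were widely spread, from 46.8 to 106 CPM, and overlapped the testes, which ran from 42.9 to 56.1 CPM.

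How flat the set looked depended on the scaling of the libraries. A TMM factor multiplies a library's total so that a trimmed average of log2 differences from a reference library is 0. The median feature need not lie at 0: after TMM scaling it was at 0.42 for testis over ovary before spawning and 0.17 at spawning. The TMM factors ran from 0.755 in spawning testis 2 to 1.45 in pre-spawning testis 1. The 3 pre-spawning testes had the highest factors, from 1.29 to 1.45. After TMM scaling the median ratio of the members was 2.55 instead of 2.21, and 144 of the 307 still met the rule (46.9% of the members and 39% of the 369 features that met it on that scale). With size factors from medians of ratios, 127 members met it (41.4% of the members and 34.1% of 372 features). On all 3 scales 123 members, or 40.1%, stayed within the limit. Among them were each of the 5 features of smallest spread in CPM, the single transcript cluster74474 and cluster86. None of the 5 most abundant members stayed within it on all 3 scales. The 5 of smallest spread in CPM widened to ratios of 2.04 to 2.25 with TMM and 2.1 to 2.47 with medians of ratios. The lowest ratios of any member on those scales were 1.47 and 1.5. Both belonged to cluster8515, whose ratio was 2.03 in CPM and which was named after its values were seen.

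**Figure D5:**
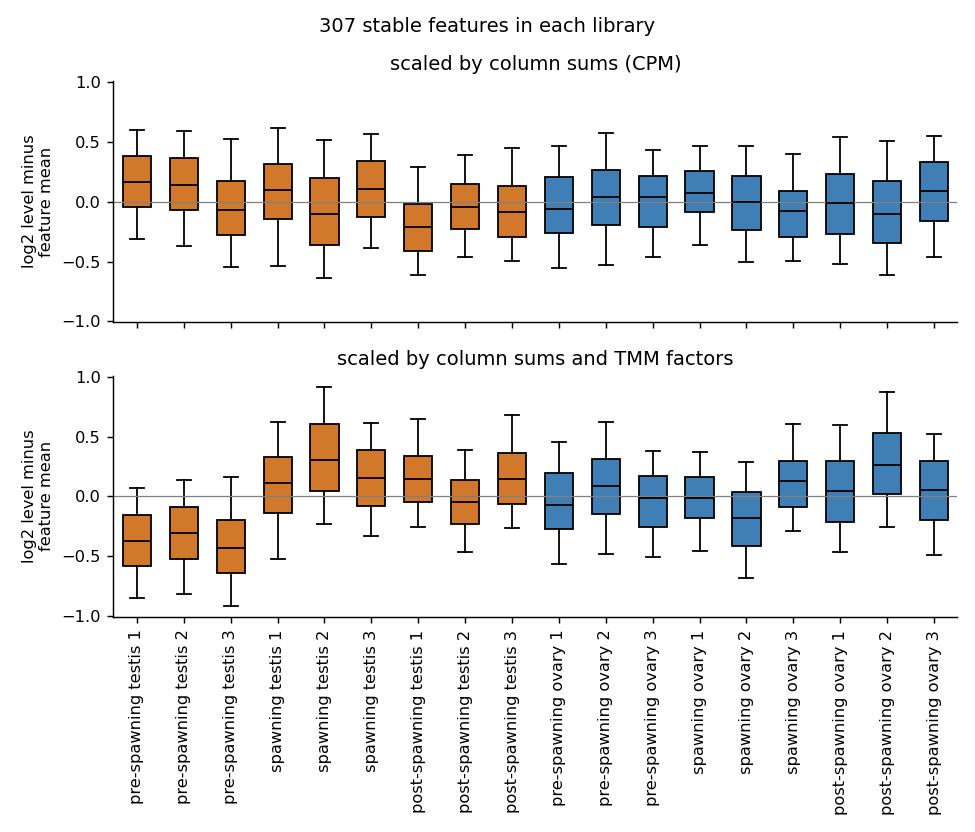
Log2 level of each of the 307 stable features minus its mean over 18 libraries, in CPM (top) and after TMM scaling (bottom), with testes in orange and ovaries in blue. Boxes show medians and quartiles and whiskers the 5th and 95th percentiles. Pre-spawning testes lie near or above 0 in the top panel and below all other groups in the bottom panel.

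Differences between groups were fitted over all features after TMM scaling, using the quasi-likelihood test in edgeR, with Benjamini-Hochberg adjustment and a threshold of 0.05. These contrasts use the libraries on which the members were chosen, so the counts that follow describe the set, and nothing is read from how they compare with the background. In all, 69 of the 307 members passed in at least 1 of 9 comparisons, 6 of them in 2 or more, and 238 in none. The share of all features passing in at least 1 of the 9 was not counted, so these counts stand without a background. DESeq2 called 66, 59 and 30 members between testis and ovary before, at and after spawning. These were 21.5%, 19.2% and 9.77% of members, over backgrounds of 48.6%, 51.1% and 47.5%. Without a low-count filter edgeR called 0 members in each, while it called 21319, 22956 and 21417 of 132790 features. At an unadjusted p under 0.05 it had 15, 1 and 1 members and 33114, 34282 and 32878 features. Every gonad call named next was lost in that setting.

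Before spawning, 41 members (13.4%) were called between testis and ovary, all lower in testis, where 41.9% of the 53536 features tested were called, 22.1% higher and 19.8% lower in testis. The median log2 fold change of testis over ovary was -0.36 in members and 0.42 over all features. This direction depended on the scaling. On library totals with no factor the median of all features was 0.86 and that of the members 0.09. There 6 members were called, all higher in testis, none of them among the 41. Over all features that setting called 23329 of 53536, with 15900 higher and 7429 lower in testis. The lead feature, cluster57754, had 35.1, 40.5 and 39.2 CPM in pre-spawning testes against 58.7, 65.7 and 54.8 CPM in pre-spawning ovaries, groups that did not overlap (log2 fold change -1.08, SE 0.25; -0.63 with no factor, where the call was lost). The second steadiest feature in CPM, cluster46145, was also among the 41 (log2 fold change -0.68, SE 0.26). Its CPM values of 29.5, 24.7 and 23.7 in pre-spawning testes nevertheless overlapped those of 35.2, 27.5 and 28.9 in pre-spawning ovaries. The count was 31, 15 and 12 without pre-spawning ovary 1, 2 and 3, and 27, 14 and 10 without pre-spawning testis 1, 2 and 3. Over all features it was 18835, 16435 and 16304 without those ovaries and 18798, 18711 and 17669 without those testes. With all libraries it was 22432.

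At spawning, 17 members (5.54%) were called, all higher in testis, against 45.4% of all features tested, 23.1% higher and 22.3% lower in testis. The median log2 fold change was 0.25 in members and 0.17 over all features. With no scaling factor the medians were 0.07 in members and 0.00 over all features, and 5 members were called, 3 higher and 2 lower in testis. Over all features that setting called 23367, with 10826 higher and 12541 lower in testis. The cluster of 2 transcripts cluster20459 led, with 62.5, 86 and 87.8 CPM in spawning testes against 41.5, 44.2 and 53.2 CPM in spawning ovaries (log2 fold change 0.94, SE 0.29). Its groups did not overlap, and its call was lost without spawning testis 2, ovary 1 or ovary 2. The count was 21, 2 and 9 without spawning testis 1, 2 and 3, 4, 1 and 16 without spawning ovary 1, 2 and 3, and 11 with season as a block. Over all features it was 22134, 19793 and 20168 without those testes and 20491, 18518 and 21701 without those ovaries. It was 22747 with the block and 24298 with all libraries and no block.

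After spawning, 9 members (2.93%) were called, 3 higher and 6 lower in testis, against 41.5% of all features tested, 19.4% higher and 22.1% lower in testis. The median log2 fold change was -0.05 in members and 0.04 over all features. The split by direction moved with the setting: 5 were higher and 3 lower with RLE scaling, 17 higher and 13 lower by DESeq2, 2 higher and 11 lower with no scaling factor, and 8 higher and 3 lower without post-spawning ovary 2. Over all features 11004 were higher and 11504 lower with RLE scaling, and 12716 and 12692 by DESeq2. With no factor they numbered 9521 and 11718, and without post-spawning ovary 2 they numbered 7031 and 10080. The single transcript cluster66953, lower in testis, had 37.1, 38.8 and 37.9 CPM in post-spawning testes against 74.9, 68.7 and 91.2 CPM in ovaries of that stage (log2 fold change -0.96, SE 0.27). In the other direction cluster25032 had 35.7, 54.9 and 46.9 CPM in testes against 22.5, 22.3 and 29.2 CPM in ovaries (log2 fold change 0.95, SE 0.27). Neither pair of groups overlapped, and both calls held with no scaling factor. The count was 2 when any 1 of the post-spawning testes was left out, and 12, 11 and 4 without post-spawning ovary 1, 2 and 3. Over all features it was 16341, 17753 and 16258 without post-spawning testis 1, 2 and 3, and 25544, 17111 and 16196 without those ovaries. With all libraries it was 22207.

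Between stages of the testis, few members passed by edgeR, and more by DESeq2. Spawning against pre-spawning testes gave 6 (1.95%), all higher at spawning, where 4.04% of 51080 features were called, 1.83% higher and 2.21% lower. The members' median log2 fold change was 0.52, against 0.03 over all features. It was -0.06 with no scaling factor, which put the median of all features at -0.54 and called 1 member, lower at spawning. Over all features that setting called 6813, with 762 higher and 6051 lower at spawning. The single transcript cluster74474 had 104, 82.5 and 108 CPM in spawning testes against 74.2, 68.2 and 62.8 CPM in pre-spawning testes (log2 fold change 1.09, SE 0.23; 0.52 with no factor, where the call was lost). Spawning testes were all above pre-spawning ones, and post-spawning testes had 60.1, 69.8 and 66.3 CPM, while ovaries lay between 64.4 and 87.8 CPM. With season as a block edgeR passed no member and 0 of 51080 features of any kind. At an unadjusted p under 0.05 it had 94 members and 13557 features. No member passed when pre-spawning testis 2, pre-spawning testis 3, spawning testis 2 or spawning testis 3 was left out. In that order 0, 0, 34 and 462 of all features passed. The unadjusted counts were 96, 105, 78 and 92 members. Over all features they were 10830 of 53790, 12091 of 53671, 12269 of 54565 and 15537 of 54284. Without pre-spawning testis 1, 14 members and 7909 of 53659 features passed, and without spawning testis 1, 29 members and 3440 of 54387 features. DESeq2 called 91 members (29.6%), over a background of 19.1%.

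Post-spawning against pre-spawning testes gave 2 members (0.651%), both higher after spawning, where 6.15% of features were called, 3.18% higher and 2.97% lower. The median log2 fold change was 0.37 in members and -0.19 over all features. With no scaling factor it was -0.21 in members and -0.78 over all features, with 1 member called, lower after spawning. Over all features that setting called 9741, with 1279 higher and 8462 lower after spawning. The cluster of 11 transcripts cluster2170 had 289.9, 254 and 288 CPM in post-spawning testes against 181, 191 and 129 CPM in pre-spawning testes (log2 fold change 1.33, SE 0.3; 0.72 with no factor, where the call was lost), without overlap. With any 1 post-spawning testis left out, without pre-spawning testis 2 or 3, or with season as a block, no member passed (edgeR; 30 to 64 at an unadjusted p under 0.05). Over all features 2 to 148 passed in those fits that left out a library and 1309 with the block, against 3143 with all libraries and no block. At the unadjusted level the count over these fits was 10570 to 15235 features, of 51080 to 54718 tested. Without pre-spawning testis 1, 9 members and 9495 of 53659 features passed. DESeq2 called 65 members (21.2%), over a background of 22%.

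Post-spawning against spawning testes gave no member by edgeR, where 0.0352% of features were called, 0.0176% in each direction. At an unadjusted p under 0.05 edgeR had 22 members and 8105 of 51080 features. DESeq2 called 1 member (0.326%), over a background of 5.29%. In ovaries edgeR called none of the 42501 features tested in any of the 3 comparisons, a background of 0%. That background was not fixed: without post-spawning ovary 1 it called 25 features for post-spawning against pre-spawning and 41 for post-spawning against spawning, and with no low-count filter 1389, 2159 and 1761 of 100952 features for spawning against pre-spawning, post-spawning against pre-spawning and post-spawning against spawning, with 0 members among them in each of these fits. Members with an unadjusted p under 0.05 numbered 0 for spawning against pre-spawning, 5 for post-spawning against pre-spawning and 0 for post-spawning against spawning ovaries. Over all features 2093, 3936 and 3035 of 42501 had such a p. DESeq2 called 0 members in each, over backgrounds of 0.207%, 1.02% and 1.04%. The members' log2 fold changes lay between -0.73 and 0.98 over these 3 ovary comparisons, with medians of -0.11, 0.08 and 0.18.

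Properties of the transcript map played no part in the choice. Members were single transcripts in 123 cases, or 40.1% (Wilson 95% interval 34.7% to 45.6%), against 39% of the other features at 10 CPM in every library and 77.3% of all features. The median number of transcripts was 2 in members and 2 in those others, and 10 or more transcripts were joined in 6.19% of members and 6.77% of the others. By number of transcripts, the share of 10 CPM features that were members ran only from 6.12% (4 to 5 transcripts) to 7.12% (2 transcripts). By mean level it was 25.5% of the 102 features under 20 CPM, 7.57% from 20 to 40 CPM and 4.97% above 160 CPM. A feature of mean level near 10 CPM can reach the floor everywhere only if it varies little, so the first of these shares is partly set by the rule.

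In CPM, large clusters could be as level as single transcripts. The cluster of 126 transcripts cluster4 had a ratio of 1.84, with 113 ± 22.7 CPM in testes and 118 ± 10.1 in ovaries (mean ± SD, n = 9 per gonad). The cluster of 47 transcripts cluster86 had a ratio of 1.8, with 26.1 ± 4.42 CPM in testes and 27.5 ± 4.6 in ovaries. The cluster of 112 transcripts cluster6 had a ratio of 2.44. Its 2 highest values were in season 1 libraries, 69.1 CPM in spawning testis 1 and 56.2 in pre-spawning testis 1. All other libraries ran from 28.4 to 46.3 CPM. With TMM and median-of-ratios scaling, cluster4 (2.55 and 2.64) and cluster6 (3.05 and 3.12) exceeded the limit of 2.5. The ratios of cluster86 were 2.24 and 2.46.

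Reads of a gene may be divided between features, and this bears on how level a member is. Transcript identifiers share a common stem across features in 165 members (53.7%), against 53.8% of the other features at 10 CPM and 42.7% of all features. The features that share a stem with a member had a summed mean level under 10% of the member's in 39 cases and at least 100% of it in 59, with a median of 75%. When each of these members was summed with every such feature, 129 of the 165 still met the rule and 36 did not. The other 142 members had no such feature and so met the rule unchanged. Counting them, 271 of 307 members (88.3%) met it. Members that share stems with each other can enter the same sum more than once. Among the other 10 CPM features, 72 would meet it when summed.

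Some members shared stems with each other, so that they are not independent units. This held for 57 members (18.6%), in 26 linked sets of which 23 were pairs. In the pair of cluster74474 and cluster16220 the sum had a ratio of 1.81, close to the 1.8 of the first and below the 2.22 of the second. The sum of cluster43696 with its 2 stem partners, cluster54945 and cluster22909, both members too, had a ratio of 1.64. These partners were named after their values were seen.

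Other members shared stems with features that varied widely. The features sharing a stem with cluster4 numbered 70. The most abundant of them, cluster168, averaged 337 CPM in testes and 10.4 CPM in ovaries, and the sum of all had a ratio of 4.67. A linked set of 5 members, cluster5377, cluster13300, cluster20713, cluster5168 and cluster71396, shared stems with cluster18, which averaged 31131 CPM in testes and 4585 CPM in ovaries. These members, named after their values were seen, averaged 51.1 to 231 CPM in testes and 52.7 to 187 CPM in ovaries, with ratios from 2.12 to 2.29. Each had 217 or 218 stem partners, which together averaged at least 30086 CPM, against means of 51.9 to 209 CPM for the members themselves. Summed with these partners each would have a ratio of 7.13. The sums are nearly the same sum, so this is not 5 separate results.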

How the data were processed

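Whole-number counts for 18 libraries were deposited with a map of 251830 transcripts to 135031 features. The tools named in the submitters' processing notes are fastp and Salmon; how transcripts were assembled and clustered is not given in the sources used here. Salmon estimates fractional counts, so the deposited counts may be rounded.

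CPM was computed from the column sums. Counts were tested in edgeR 4.0.16 (TMM, filterByExpr, glmQLFit and glmQLFTest, robust=FALSE; R 4.3.3), on all 18 libraries for testis against ovary and on the 9 libraries of a gonad for its stages; DESeq2 1.42.0 was an alternative. Standard errors came from the F statistic. The biological coefficient of variation was 63.3% over all libraries, 57.1% in testes and 64.3% in ovaries. All pairs of libraries within groups differed by more than counting noise (lowest chi-square per degree of freedom 23.6). Features were named by a rule: smallest spread, highest mean, nearest the limit, extreme testis to ovary ratio, most transcripts, and smallest adjusted p per comparison and direction. The members and lists were chosen with earlier results of these data known.

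The labels put same-numbered libraries in a common season, called a batch, which pairs them across groups. Over features at 10 CPM in all libraries their deviations from group means correlated by -0.03 on average (45 pairs, 10 of them above 0.1). Single pairs ran widely, from -0.51 to 0.62, and the mean over 90 pairs from different seasons was 0.02. Deviations from a group mean cancel within the group, so this second mean is nearly fixed by the first and is no separate comparison. Fits without the season were primary. Gene lists could not be applied, as no feature has a gene name here, and no sequence of the features was analysed here.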

Additional observations from a re-analysis of the deposited data

How the results depend on the processing

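The number of stable features was 68 at a ratio limit of 2 and 747 at 3. It was 683, 783 and 478 without season 1, 2 and 3, and 309 to 422 without single libraries. Leaving libraries out can only loosen the rule, so these last counts could not fall below 307. Other floors, scalings and totals kept the number within 1.5 times of 307. Members separating the gonads numbered 2 with TMM and 0 with median-of-ratios scaling (added after seeing the data), and 4 to 7 without single libraries. A full separation survives the loss of any library, so the last range could not start below 4. Members called before spawning, at spawning and after spawning between testis and ovary numbered 66, 59 and 30 by DESeq2. They numbered 0 each with no low-count filter in edgeR (15, 1 and 1 at an unadjusted p under 0.05). Without the filter 33114, 34282 and 32878 of 132790 features were at that unadjusted level. With no scaling factor the members called numbered 6 before and 5 at spawning, and RLE scaling gave 40 at spawning. Leaving out single libraries gave 10 to 31, 1 to 21 and 2 to 12. Over all features no factor gave 23329 before and 23367 at spawning, and RLE scaling 24676 at spawning. Leaving out single libraries gave 16304 to 18835, 18518 to 22134 and 16196 to 25544 over all features. For spawning against pre-spawning testes the count was 91 by DESeq2, 11 with RLE, 1 with no factor, 3 with no filter and 0 to 29 without single libraries. For post-spawning against pre-spawning testes it was 65, 8, 1, 1 and 0 to 9 in the same order. Over all features the first contrast gave 9743, 2085, 6813, 8584 and 0 to 7909 in that order. The second gave 11222, 3246, 9741, 9485 and 2 to 9495. DESeq2 called 1 member between post-spawning and spawning testes. Counts of 0 there and in ovaries stayed 0 in every edgeR alternative and without single libraries (range 0 to 0). Over all features that testis contrast gave 33 with RLE, 12 with no factor, 3815 of 126519 with no filter and 3 with season as a block. Without single libraries it gave 0 to 177. Without spawning testis 1, which gave the 177, 39 members and 10429 of 54387 features had an unadjusted p under 0.05. A count of 0 members says little where few or no features of any kind were called. The causes were not tested.

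With season as a replicate block, the paired fits called 11 members at spawning between testis and ovary and 0 for both contrasts with pre-spawning testes (edgeR; 94 and 58 at an unadjusted p under 0.05 for spawning and post-spawning); no other count moved by more than 1.5 times. Over all features the paired fits called 22747 at spawning between testis and ovary. They called 0 for spawning and 1309 for post-spawning against pre-spawning testes. At an unadjusted p under 0.05 they had 13557 and 15235 of 51080 features there. Depth limits single values little here: the lowest count behind a member was 156.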

Other observations

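A measure computed without library scaling is the SD over libraries of the log2 ratio between a pair of members, averaged over all partners. It was lowest for cluster18260, at 0.35, and highest for cluster42194, at 0.56, with a median of 0.44. Of the 10 members lowest in this measure, 4 were also among the 10 with the lowest ratio of highest to lowest CPM. Both measures were computed on the libraries that chose the members. The partners are members too, chosen for level CPM, so library totals enter this measure through that choice. It is therefore no separate check on the order by ratio.

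A scaling factor taken from the geometric mean of the members relative to each library total ran from 0.872 in post-spawning testis 1 to 1.12 in pre-spawning testis 1. This range of 1.28-fold compares with 1.92-fold for TMM and 2.11-fold for median-of-ratios factors over the same libraries. The members were chosen on library totals, which holds their factor near 1.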
